A study of Mus musculus with 15 samples.

Results

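The genes described here encode the tight junction, its cytoplasmic plaque and the apicobasal polarity complexes of epithelial cells, and were chosen by name: 12 claudins, 4 MARVEL-domain proteins, 3 junctional adhesion molecules, Epcam, 4 plaque proteins, 6 proteins of the Par complex, 2 of the Crumbs complex, 4 of the Scribble module and 2 angiomotins. Of the 38 genes, 34 were listed in at least 1 of the 2 expression tables, which held 13893 and 15023 genes. Cldn3, Cldn8, Cldn25 and Epcam were in neither and were not analysed here. By these symbols, 28 members were listed in both tables, Cldn1, Cldn7 and Patj only in the knockout-clone table, and Cldn4, Cldn23 and Marveld2 only in the knockdown table. The knockdown table lists Patj under its older symbol Inadl.

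Tight junctions seal the space between neighbouring epithelial cells. Claudins form the strands and set which ions pass, occludin and tricellulin are MARVEL-domain proteins of the same strands, and the zonula occludens proteins tie the strands to actin. The Par, Crumbs and Scribble complexes divide the membrane into apical and basolateral domains. In mammary epithelium, loss of junctions and polarity is a known part of epithelial-to-mesenchymal transition (EMT), in which repressors such as SNAI1 and ZEB1 bind E-box sequences of epithelial promoters.

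All 15 libraries came from NMuMG cells, an epithelial line from the normal mouse mammary gland. In the knockdown dataset, 2 libraries of NMuMG cells were compared with 2 libraries of NMuMG cells that carry an shRNA against Pcbp1, named shPCBP1 cells. The sample labels give the controls as NMuMG without treatment, whereas the study describes controls with a scrambled shRNA, so whether they carried one is uncertain here. Pcbp1 encodes an RNA- and DNA-binding protein. In the knockout-clone dataset every library carried the shPCBP1 knockdown: the shPCBP1 group held the unaltered line and 3 control (CT) clones treated with Cas9 without gene-specific guides, and was compared with 3 FAM3C KO clones and 3 LIFR KO clones. Fam3c encodes a secreted cytokine-like protein and Lifr the leukemia inhibitory factor receptor. Knockout clones were grown from single colonies after guide pairs had cut out a short coding fragment, and each clone gave 1 library. A FAM3C and LIFR double KO was 1 library, so its values are given without a test. Whether the duplicate libraries of the knockdown dataset came from separate cultures was not given in the sources used here, so their p-values measure the spread between these libraries, which may be technical.

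Values are normalized CPM, read counts scaled to a common library size. Folds are ratios of mean CPM, and log2 differences are of CPM + 0.1. The 2 datasets were normalized apart, and levels are not compared between them. Implied totals in the knockout-clone dataset ran from 16031859 to 46901675 reads, and the depth of the knockdown dataset is unknown. Pcbp1 stood at 287 and 312 CPM in the NMuMG libraries and at 14.1 and 14.2 CPM in the shPCBP1 libraries. Fam3c was at 26.4 to 42.9 CPM in the FAM3C KO clones against 47.0 to 59.4 CPM in the shPCBP1 lines. Lifr was at 14.6 to 34.9 CPM in the LIFR KO clones against 25.8 to 40.2 CPM, so its transcript level did not mark those clones. Of 8 epithelial markers 6 were listed and 5 reached 1 CPM, with Cdh1, Krt8 and Krt18 above 100 CPM in every library, while Grhl2 stayed below 1 CPM and Epcam and Esrp1 were not analysed here. Mesenchymal markers were present as well. In the knockdown dataset their summed level was 535.5 and 556.5 CPM in NMuMG cells and 1316 and 1351 CPM in shPCBP1 cells. The epithelial markers, mostly Krt8, Krt18 and Krt19, summed to 2952 and 3007 against 2791 and 2850 CPM. Single epithelial markers went both ways. Cdh1 fell from 231.7 and 236.9 to 148.6 and 149.0 CPM and Esrp2 from 35.1 and 37.8 to 25.1 and 26.7 CPM. Krt8 and Krt19 were also lower, and Krt18 rose from 924.4 and 936.1 to 965.4 and 996.6 CPM. The fibroblast, myoepithelial, endothelial and leukocyte marker lists, each taken separately, summed to less than 11 CPM in every library. LIFR KO clones 2 and 3 and the double KO stood apart: over 12550 genes their differences from the shPCBP1 lines ran against transcript GC content (Spearman's rho -0.758, -0.755 and -0.710), where the other 8 libraries lay between -0.288 and 0.238. Each LIFR KO call on a member is therefore given with and without those clones.

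Promoter windows for 28 of the 38 members were taken from RefSeq on GRCm38.p6, as the 250 bases before each annotated start, 5′ to 3′ on the strand of the gene. The windows printed here belong to 6 of the members that changed most after PCBP1 knockdown, since they let a reader see where the E-box letters CACCTG, which read CAGGTG on the other strand, lie. The E-box is in capitals, and where a gene has several windows 1 is shown, the first except for Ocln. Crb3 (chr17:57061951-57062200, plus strand) held 3 matches, starting 118, 63 and 7 bases before the start. Ocln (chr13:100552499-100552748, minus strand) held 2, at 213 and 68 bases, in the window shown, and none in its other window. Pard6b (chr2:168080754-168081003, plus strand) held 2, at 141 and 86 bases. Tjp3 (chr10:81291582-81291831, minus strand) held 1, at 108 bases. Marveld2 (chr13:100616972-100617221, minus strand) and Cldn2 (chrX:139800558-139800807, plus strand) held none.
Crb3: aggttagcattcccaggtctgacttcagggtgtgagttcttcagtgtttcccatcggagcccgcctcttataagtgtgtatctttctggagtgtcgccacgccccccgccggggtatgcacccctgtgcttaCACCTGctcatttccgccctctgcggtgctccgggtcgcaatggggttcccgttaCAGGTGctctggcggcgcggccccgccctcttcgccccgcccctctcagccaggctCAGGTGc
Ocln: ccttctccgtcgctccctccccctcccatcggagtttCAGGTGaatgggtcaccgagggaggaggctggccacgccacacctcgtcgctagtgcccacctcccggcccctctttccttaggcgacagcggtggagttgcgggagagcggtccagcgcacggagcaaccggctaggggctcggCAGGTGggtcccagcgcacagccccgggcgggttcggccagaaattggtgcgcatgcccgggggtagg
Pard6b: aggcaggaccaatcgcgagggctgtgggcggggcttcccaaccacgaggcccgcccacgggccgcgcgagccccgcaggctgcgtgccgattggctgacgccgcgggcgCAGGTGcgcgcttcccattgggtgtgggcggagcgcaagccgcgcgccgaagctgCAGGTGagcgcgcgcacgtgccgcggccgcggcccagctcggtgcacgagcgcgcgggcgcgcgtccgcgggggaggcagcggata
Tjp3: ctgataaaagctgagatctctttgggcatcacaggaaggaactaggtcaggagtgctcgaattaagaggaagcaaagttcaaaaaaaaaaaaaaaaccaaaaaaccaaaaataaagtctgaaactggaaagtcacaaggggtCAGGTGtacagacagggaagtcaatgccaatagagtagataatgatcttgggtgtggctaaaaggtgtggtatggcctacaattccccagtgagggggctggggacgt
Marveld2: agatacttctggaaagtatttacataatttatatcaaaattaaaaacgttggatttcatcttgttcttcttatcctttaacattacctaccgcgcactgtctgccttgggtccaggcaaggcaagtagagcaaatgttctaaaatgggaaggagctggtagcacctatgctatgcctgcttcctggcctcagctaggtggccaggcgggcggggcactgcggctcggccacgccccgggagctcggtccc
Cldn2: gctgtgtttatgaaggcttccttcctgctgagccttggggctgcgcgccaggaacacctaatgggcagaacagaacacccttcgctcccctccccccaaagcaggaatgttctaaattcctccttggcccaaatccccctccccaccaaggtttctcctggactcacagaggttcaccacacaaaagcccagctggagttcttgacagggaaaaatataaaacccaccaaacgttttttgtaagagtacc

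Over all 32851 promoter windows, 17.2% held this E-box, and of the 44 windows of members 34.1% did. The STAT element TTCNNNGAA, which reads the same on both strands, was in 7.02% of all windows and 6.82% of the windows of members, those of Cldn7 and Cldn12. Counted per gene over all its windows, 5 of the 6 members that fell at least 2-fold after PCBP1 knockdown held an E-box (Crb3, Ocln, Pard6b, Prkcz and Tjp3). Of the 13 other tested members that had a window and no 2-fold change, 2 did (F11r and Pard3). The tested members Cldn9, Llgl2 and Scrib had no window and are not counted. Over all genes with a window, the share was 25.5% of 581 genes called lower by at least 2-fold, 22.2% of 595 called higher by at least 2-fold and 16.6% of the 7339 others. The members were picked out by their change, so these shares are descriptive, and a match of letters is not a bound site.

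The first comparison asked which junction and polarity genes changed when PCBP1 was knocked down in NMuMG cells. The change was not uniform. Tricellulin, Tjp3, Crb3, occludin, Pard6b and Prkcz fell by 2-fold or more, while Cldn2 rose 2.12-fold and Scrib, Llgl1 and Amotl2 rose by 1.47- to 1.48-fold. A total of 23 members passed the filter of a mean of 0.5 CPM, and limma at an adjusted p under 0.07 called 21 of them, 8 higher and 13 lower. The same rule called 80.1% of the 11384 genes tested, 42.1% higher and 38% lower, so the number of members called is close to the background of this comparison. At least 2-fold changes were more frequent among members (7 of 23, 30.4%) than over all genes (14.6%), without a test of that difference. Among the further junction and polarity genes described below the share was 6 of 37 (16.2%), near that of all genes. The members were chosen with earlier results of these data known, and some of the 7 lie close to the 2-fold limit. The median log2 difference of the tested members was -0.26 against 0.02 over all genes. With 2 libraries against 2, an exact permutation test of a single gene cannot go below p = 0.333, which is the value for each of the 21 members called. Less RNA per cell and fewer cells expressing a gene cannot be told apart in these bulk libraries.

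**Figure D1:**
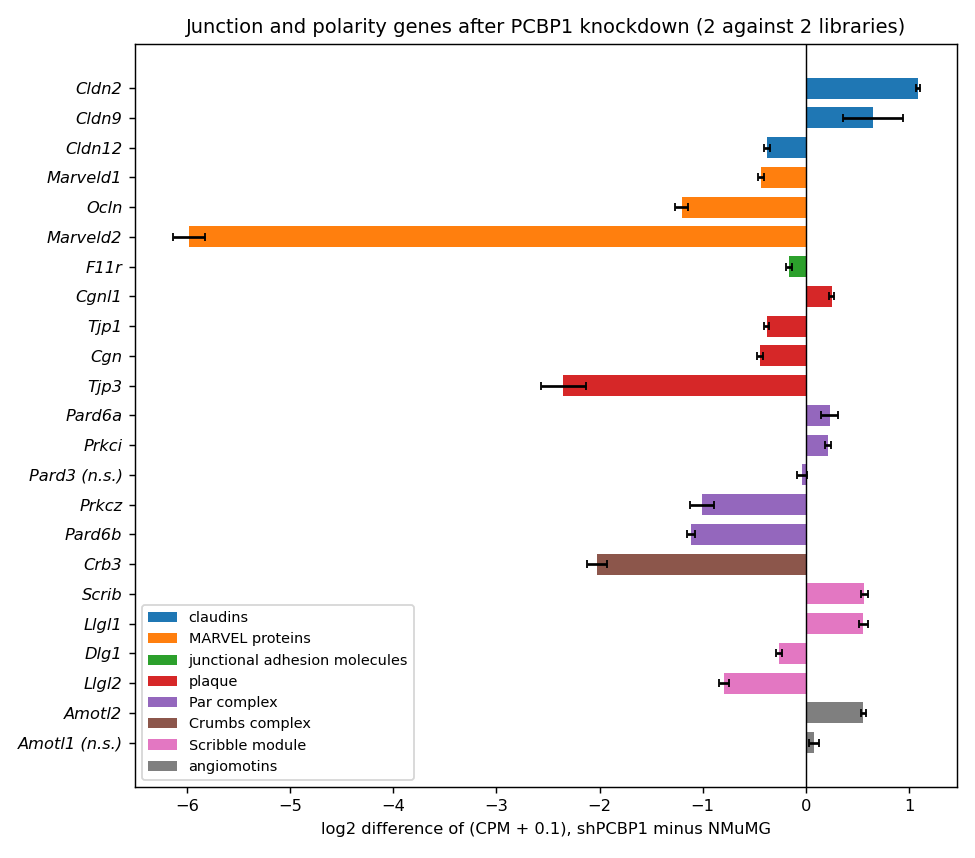
The bars give the log2 difference of (CPM + 0.1) between shPCBP1 and NMuMG cells for the 23 members tested, coloured by role, with the limma standard error as whiskers and "n.s." at the 2 members not called. Marveld2 lies at -5.98, far below every other member, and Cldn2 at 1.09 is the highest.

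Marveld2 (tricellulin, chr13:100595957-100616971), which seals the points where 3 cells meet, was at 10.46 and 11.14 CPM in NMuMG cells and at 0.054 and 0.092 CPM in shPCBP1 cells. The groups were far apart, and the shPCBP1 libraries were close to the bottom of the scale. The ratio of mean CPM was 148-fold, and the log2 difference on the (CPM + 0.1) scale, which understates changes of low genes, was -5.98 (SE 0.16, limma adjusted p = 6.12e-11). With a pseudocount of 1 CPM it was -3.46, so its size depends on the offset. Ocln (occludin, chr13:100496507-100552718) was at 18.55 and 18.88 CPM in NMuMG cells and at 8.31 and 7.82 CPM in shPCBP1 cells, a 2.32-fold fall (log2 -1.20, SE 0.06, limma adjusted p = 9.39e-09). Marveld1, another MARVEL-domain protein, went from a mean of 81.83 ± 0.34 to 60.53 ± 0.84 CPM (SD, n = 2 each). All 3 tested MARVEL members were therefore called lower, and the range of their log2 differences was wide. Marveld3 was under the filter, at 0.018 to 0.057 CPM.

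The claudins moved both ways. Cldn2 (chrX:139800828-139811386), which forms cation- and water-permeable pores in leaky epithelia, was at 354.9 and 347.1 CPM in NMuMG cells and at 748.2 and 743.1 CPM in shPCBP1 cells. Both shPCBP1 libraries were above both controls, with a log2 difference of 1.09 (SE 0.02, limma adjusted p = 6.69e-12). Per kilobase of its longest transcript, Cldn2 was also the most abundant member of the panel in this dataset, at 115.3 CPM per kb in NMuMG cells and 245.0 in shPCBP1 cells. Cldn12, a claudin without the usual PDZ-binding end, went the other way, from 93.84 ± 0.65 to 72.25 ± 0.47 CPM (SD, n = 2 each), a log2 difference of -0.38. Cldn9 was low, at 0.478 and 0.396 CPM in NMuMG cells and 0.484 and 1.109 CPM in shPCBP1 cells. Its groups nearly touched, and the call (log2 0.65, SE 0.29, limma adjusted p = 0.0588) lay just under the threshold. It was lost without the second library of either group, with quantile normalization, without the filter and at a threshold of 0.05. The barrier claudin Cldn4 and also Cldn6, Cldn15 and Cldn23 were under the filter, with no value above 0.478 CPM, so that of the claudins listed Cldn2 and Cldn12 alone exceeded 2 CPM.

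Of the plaque proteins, which link claudins to actin, Tjp3 (ZO-3, chr10:81273207-81291581) was at 1.19 and 1.45 CPM in NMuMG cells and at 0.13 and 0.24 CPM in shPCBP1 cells. Its level was low throughout and the groups did not overlap. The ratio of mean CPM was 7.21-fold, and the log2 difference was -2.35 (SE 0.22, limma adjusted p = 2.09e-06), but -0.97 with a pseudocount of 1 CPM and -3.16 with quantile normalization. Tjp1 (ZO-1), the abundant scaffold, fell from 156.4 ± 1.6 to 120.2 ± 1.9 CPM (SD, n = 2 each) and Cgn (cingulin) from 60.82 ± 0.68 to 44.71 ± 0.17 CPM. Its paralog Cgnl1 (paracingulin) rose from 111.2 ± 2.4 to 132.4 ± 2.6 CPM, a log2 difference of 0.25 (limma adjusted p = 4.83e-06). The adhesion molecule F11r (JAM-A) showed the smallest difference among the members called lower, from 80.55 ± 1.61 to 71.88 ± 0.36 CPM (log2 -0.16, limma adjusted p = 2.00e-04). Jam2, Jam3 and Pard6g were under the filter, with values of at most 0.354, 0.213 and 0.108 CPM.

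Crb3 (chr17:57059105-57065918), the epithelial Crumbs protein of the apical membrane, was at 13.63 and 14.10 CPM in NMuMG cells and at 3.64 and 3.05 CPM in shPCBP1 cells. The groups were widely separated, with a 4.15-fold fall (log2 -2.03, SE 0.09, limma adjusted p = 5.35e-09). The scaffold PATJ of the same complex was listed under its older symbol Inadl in this dataset, and stood at 9.43 and 8.82 against 5.41 and 5.54 CPM (log2 -0.73, limma adjusted p = 6.14e-06). It is not counted among the 23. In the Par complex, Pard6b (chr2:168081004-168101203), an adaptor between CDC42 and atypical protein kinase C, was at 44.57 and 44.01 CPM in NMuMG cells and at 20.20 and 20.64 CPM in shPCBP1 cells (log2 -1.11, SE 0.04, limma adjusted p = 3.48e-10). The related adaptor Pard6a rose slightly, from 5.77 ± 0.23 to 6.79 ± 0.25 CPM (log2 0.23, limma adjusted p = 0.0231). The kinases split in the same way. Prkcz was at 4.55 and 5.34 CPM in NMuMG cells and at 2.46 and 2.35 CPM in shPCBP1 cells (log2 -1.01, SE 0.11, limma adjusted p = 8.93e-06), whereas Prkci, the more abundant atypical kinase, rose from 64.68 ± 1.37 to 75.08 ± 1.77 CPM (log2 0.21). The scaffold Pard3 was at 20.76 ± 0.61 and 20.21 ± 0.71 CPM and was not called (limma adjusted p = 0.474).

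The basolateral Scribble module was divided as well. Scrib went from 31.02 ± 0.29 to 45.96 ± 0.87 CPM and Llgl1 from 28.84 ± 1.56 to 42.46 ± 1.28 CPM (SD, n = 2 each), with log2 differences of 0.57 and 0.56. Llgl2, the other Lethal giant larvae homologue, fell from 25.72 ± 0.48 to 14.78 ± 0.46 CPM (log2 -0.80, limma adjusted p = 3.96e-08), and Dlg1 fell by 0.26 on the log2 scale. Of the angiomotins, which bind polarity proteins and YAP, Amotl2 rose from 147.6 ± 0.8 to 217.2 ± 1.1 CPM (log2 0.56), and Amotl1, at 15.39 ± 0.11 and 16.30 ± 0.16 CPM, was not called (limma adjusted p = 0.146). The paralog pairs Pard6a and Pard6b, Prkci and Prkcz, Llgl1 and Llgl2, and Cgnl1 and Cgn each had a member called higher and a member called lower. Tjp1 and Tjp3 were both called lower, and of the angiomotins only Amotl2 was called. Over all genes tested 42.1% were called higher and 38% lower, so split pairs are frequent in this comparison.

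Of 54 further junction and polarity genes, 37 were tested in the knockdown dataset and 36 were called, 15 higher and 21 lower, against the same background of 80.1%. The largest differences were in Pard3b, a PAR3 paralog (8.59 and 9.09 CPM to 0.305 and 0.203 CPM, log2 -4.67), in the adhesion molecule Nectin1 and in the scaffold Dlg3. The last 2 were listed at the value that stands for 0 in both NMuMG libraries, and stood at 2.22 and 2.46 CPM and at 1.24 and 1.05 CPM in the shPCBP1 libraries.

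The second comparison asked which of these genes differed when FAM3C was knocked out in shPCBP1 cells. Limma called none of the 28 tested members, and 6 of them had an unadjusted p under 0.05. Over all 12621 genes tested it called 39 (0.309%, with 0.0872% higher and 0.222% lower), and 1286 had an unadjusted p under 0.05. The median log2 difference of the members was 0.02 against -0.01 over all genes. The 2 groups did not overlap at 3 members: Cldn2 was lower, as were 12.5% of all genes, and Cldn9 and Cldn12 were higher, as were 10.1% of all genes. The exact permutation p-values given below for these 3 members follow from that separation, by which they were picked, and are no further support.

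In the unaltered shPCBP1 line Cldn2 stood at 458.5 CPM, and the CT clones had 616.1, 449.5 and 446.8 CPM. It was at 320.4, 278.7 and 336.7 CPM in the FAM3C KO clones. Every knockout clone was below every shPCBP1 line, including the control clone that was highest. The difference was 1.58-fold (log2 -0.65, SE 0.13, exact two-sided permutation p = 0.0286, the smallest that 4 against 3 libraries allow). Its limma adjusted p was 0.0968 over all genes and passed the threshold when the LIFR KO group, whose spread enters the shared estimate, was left out of the fit (limma adjusted p = 0.0232) or when values were corrected for GC content (limma adjusted p = 0.0518).

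Cldn9 (chr17:23682584-23684026) was at 1.44 CPM in the unaltered line, 1.47, 0.61 and 1.20 CPM in the CT clones and 2.21, 1.76 and 2.88 CPM in the FAM3C KO clones. Its values were higher in all 3 knockout clones, with a log2 difference of 0.94 (SE 0.35, exact two-sided permutation p = 0.0286, limma adjusted p = 0.366). Cldn12 was at 71.8, 70.4, 74.4 and 76.9 CPM in the shPCBP1 lines and at 82.9, 97.3 and 91.1 CPM in the FAM3C KO clones (log2 0.30, SE 0.13, exact two-sided permutation p = 0.0286, limma adjusted p = 0.461). With the 2 groups fitted alone it was called beside Cldn2 (limma adjusted p = 0.0420), in a fit that called 8.29% of all genes. The 25 other tested members overlapped between the groups. Among them Amotl1 had the largest log2 difference, 1.63, with 6.2, 22.8 and 18.4 CPM in the FAM3C KO clones, but the unaltered shPCBP1 line, at 10.5 CPM, lay above clone 1 (limma adjusted p = 0.330). Cldn1, Cldn7 and Marveld3 were under the filter, with values up to 0.309, 0.525 and 0.485 CPM.

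**Figure D2:**
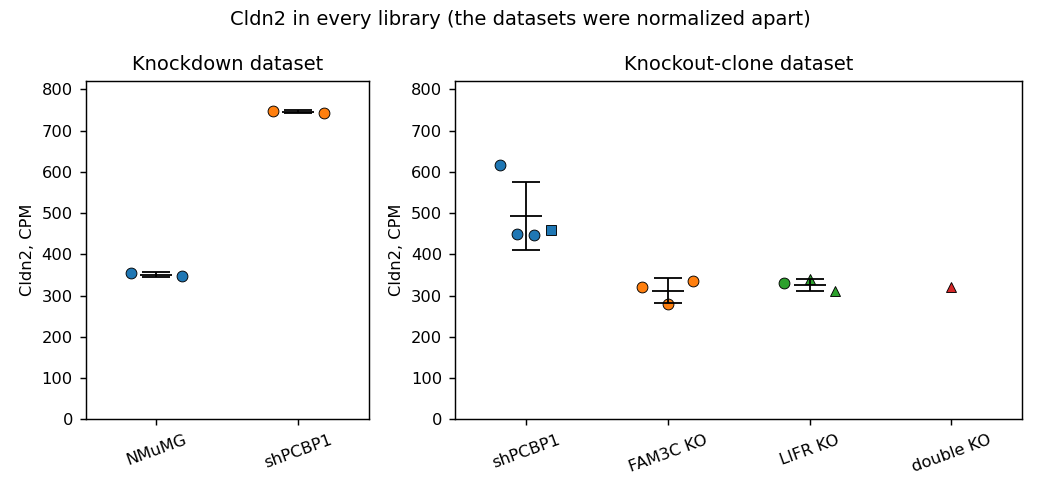
Cldn2 in CPM in every library of the 2 datasets, with the mean and SD of each group of 2 or more as a bar and whiskers. Squares mark the unaltered shPCBP1 line and triangles the 3 libraries that ran against GC content. In the knockdown dataset shPCBP1 cells lay near 746 CPM and NMuMG cells near 351 CPM, and in the knockout-clone dataset all 7 knockout libraries lay between 278.7 and 339.3 CPM, below the 4 shPCBP1 lines.

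FAM3C KO clone 2 had the lowest value of the 7 shPCBP1 and FAM3C KO libraries at 9 of the 28 tested members (32.1%). That share is near the 25.2% of all genes. It had the highest value at 2 members (7.14%), against 16.2% of all genes. The 9 members at which it was lowest were Cldn2, Ocln, Marveld1, Tjp1, Cgn, Pard6a, Patj, Crb3 and Llgl2. Ocln was at 5.04 CPM in this clone, against 13.7 and 12.2 CPM in clones 1 and 3 and 12.5 to 20.9 CPM in the shPCBP1 lines. Crb3 was at 0.88 CPM against 3.41 and 2.69 CPM in its sister clones, and Llgl2 at 30.7 CPM against 65.3 and 61.6 CPM. The summed epithelial markers were also lowest in this clone, at 2037 CPM against 2512 to 3220 CPM in the other 6 libraries. The summed mesenchymal markers, 2077 CPM and mostly Vim, lay within the 1774 to 2226 CPM of the others. Single mesenchymal markers differed. Zeb1, Cdh2, Snai2 and, by a small margin, Zeb2 were highest in this clone. Zeb1 was at 81.7 CPM against 55.8 to 65.5 CPM and Cdh2 at 270.9 CPM against 108.7 to 219.7 CPM. Vim, Fn1, Snai1 and Twist1 were not highest there. The part of these marker differences in the member values was not tested. With 1 library for each clone, a difference of clone 2 from the others has no replicate check.

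**Figure D3:**
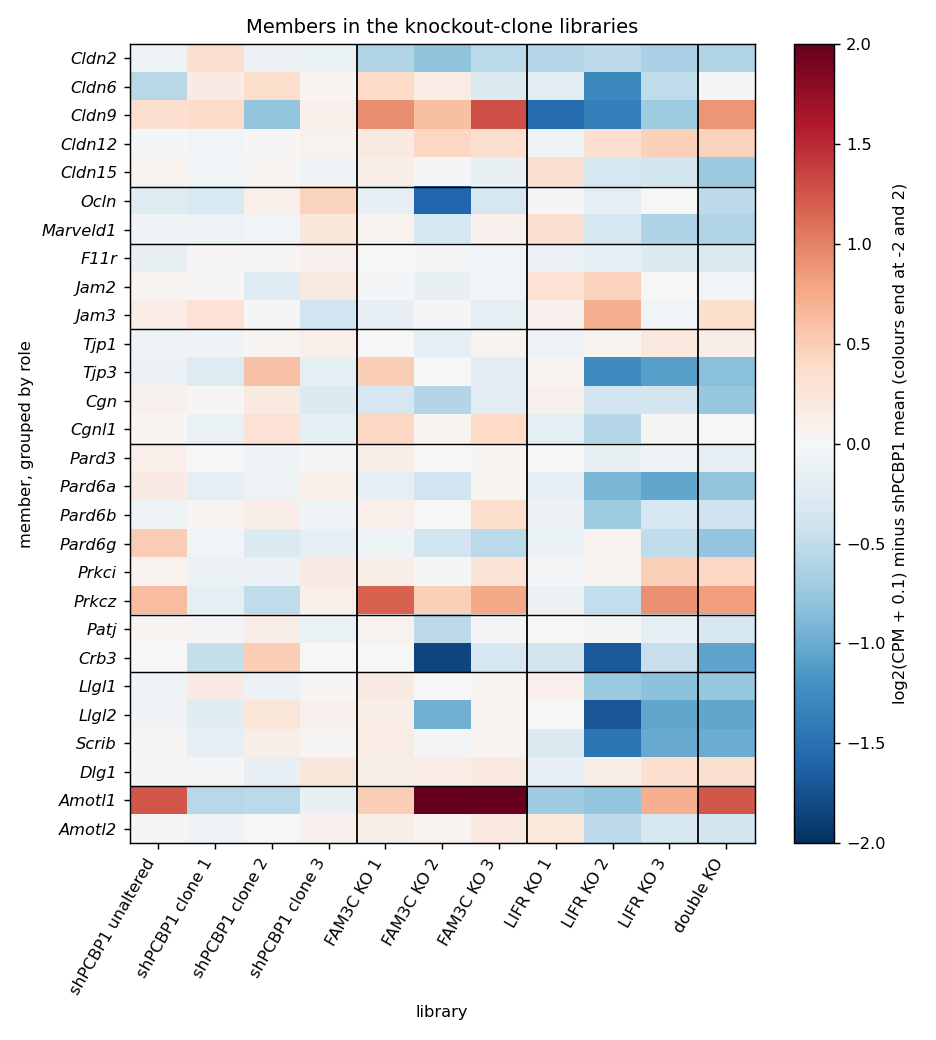
Colours give log2(CPM + 0.1) minus the mean of the 4 shPCBP1 lines for the 28 tested members (grouped by role) in the 11 libraries of the knockout-clone dataset. Cldn2 is below the shPCBP1 mean in all 7 knockout libraries, FAM3C KO 2 is low at Ocln, Crb3 and Llgl2, and LIFR KO 2, LIFR KO 3 and the double KO are low at Tjp3, Pard6a, Llgl1, Llgl2 and Scrib.

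The third comparison asked the same of LIFR knockout. Limma called 2 of the 28 members, Cldn2 and Scrib, both lower. Over all 12621 genes it called 816 (6.47%), with 0.911% higher and 5.55% lower, and the median of all genes was -0.16 on the log2 scale, close to the members' median of -0.22. The groups did not overlap at 3 members that were lower, Cldn2, Pard6b and Scrib, and at none that were higher, where 13.2% and 3.95% of all genes did so. At an unadjusted p under 0.05 there were 7 of the 28 members and 4503 of the 12621 genes. The summed epithelial markers were 2142, 1245 and 1986 CPM in clones 1, 2 and 3, below the 2512 to 3220 CPM of the shPCBP1 lines. Krt8, Krt18 and Krt19 were below every shPCBP1 line in all 3 clones. Cdh1 and Esrp2 were below every line in clones 2 and 3 only. In clone 1 they were at 344.2 and 48.8 CPM, against 291.9 to 345.9 and 40.8 to 53.8 CPM in the shPCBP1 lines. Grhl2 was below every line in no clone. The summed mesenchymal markers, mostly Vim, were 1602, 1283 and 1936 CPM in clones 1, 2 and 3, against 1774 to 2027 CPM. Vim and Twist1 were below every line in all 3 clones. Zeb1 was above every line in all 3, at 63.0, 62.1 and 64.9 CPM against 55.8 to 61.2 CPM. Zeb2 was above every line in clones 2 and 3, and Cdh2 in clone 3. Fn1 was below every line in clone 2. Snai2 was above every line in clone 2 and below every line in clones 1 and 3. Snai1 lay within the range of the lines. The part of these marker differences in the member values was not tested.

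Clones 1, 2 and 3 of LIFR KO had 329.9, 339.3 and 310.3 CPM of Cldn2, all below the lowest shPCBP1 line at 446.8 CPM. The 3 clones lay close together, although clone 1 lacked the shift against GC content. The difference was 1.51-fold (log2 -0.58, SE 0.13, limma adjusted p = 0.0464). With clone 1 as the only LIFR KO library the log2 difference was -0.57 (limma adjusted p = 0.214), and here and in the other values from clone 1 alone that library is assumed to vary like the libraries of the other groups. After correction for GC content it was -0.49 (limma adjusted p = 0.126). The size of the difference held and the call did not. The double KO stood at 320.7 CPM, within the range of the single knockouts. The FAM3C KO and LIFR KO clones did not differ at Cldn2 beyond their spread (log2 -0.07, SE 0.14, limma adjusted p = 0.745). The 4 shPCBP1 lines served as controls for both knockouts.

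Scrib (chr15:76047158-76069784), the scaffold of the basolateral domain, was at 157.5 CPM in the unaltered line, 137.9, 168.5 and 157.5 CPM in the CT clones and 126.6, 56.3 and 76.8 CPM in LIFR KO clones 1, 2 and 3. Clone 1 was just below the lowest control, and clones 2 and 3 were far below it. The log2 difference was -0.92 (SE 0.22, limma adjusted p = 0.0506) with all 3 clones, -0.29 (limma adjusted p = 0.344) with clone 1 alone as LIFR KO and -0.24 (limma adjusted p = 0.264) after correction for GC content. Scrib had the highest GC content of the panel, 61.2%. Pard6b was at 26.9, 17.7 and 22.9 CPM in the LIFR KO clones against 27.4 to 32.0 CPM in the shPCBP1 lines. It was not called (log2 -0.39, limma adjusted p = 0.108, and -0.11 with clone 1 as the only LIFR KO library).

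The same division between clones ran through the panel. Among the 8 tested members with a transcript GC content of at least 55%, all 8 were below the shPCBP1 mean in clones 2 and 3, with median log2 differences of -1.31 and -0.92, and 5 of 8 were below it in clone 1, with a median of -0.09. Over all genes of that GC content the medians were -0.80, -0.77 and 0.01. Among the 20 members of lower GC content the medians were -0.10, -0.18 and -0.07 in clones 1, 2 and 3. Across the 28 members the Spearman correlation of the difference with GC content was -0.04 in clone 1, -0.84 in clone 2 and -0.76 in clone 3. These are correlations across genes of single libraries and are given as a description. Llgl2, as an example, was at 59.2 CPM in clone 1 and at 18.1 and 29.1 CPM in clones 2 and 3, against 50.3 to 70.8 CPM in the shPCBP1 lines. Without clone 1, 14 of the 28 members were called, 13 of them lower, where 57.4% of all genes were called and 40% were called lower.

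**Figure D4:**
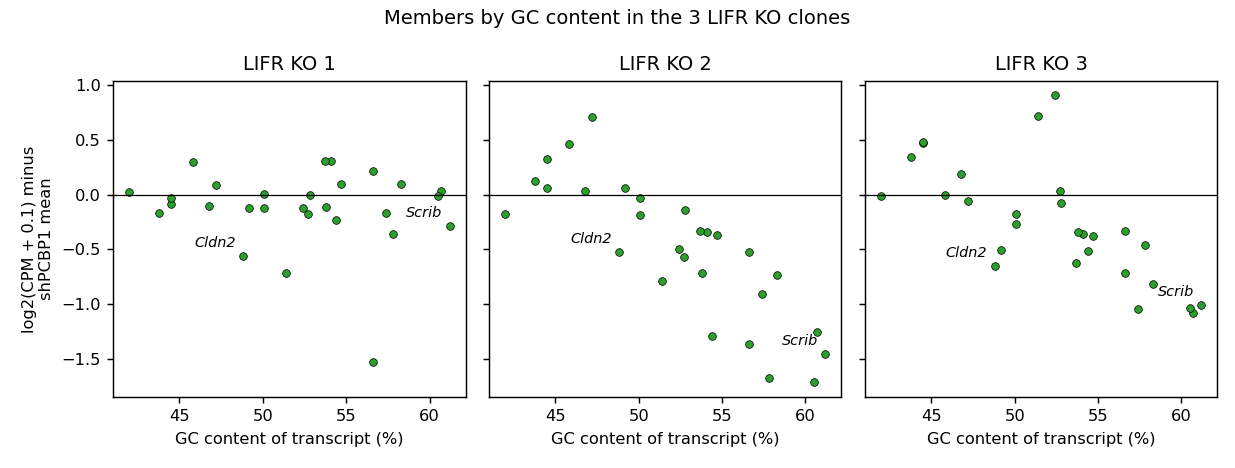
Each point is 1 of the 28 tested members, with the GC content of its transcript in percent on the horizontal axis and log2(CPM + 0.1) minus the shPCBP1 mean on the vertical axis, in each LIFR KO clone. The points of clones 2 and 3 fall with GC content, with Scrib at the right end, and those of clone 1 do not, while Cldn2, at 48.8% GC, lies near -0.6 in all 3 clones.

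The difference between the 2 knockouts was tested directly. Limma called 2 of the 28 members, Cldn9 and Scrib, both higher in FAM3C KO than in LIFR KO clones. It called 8.28% of all genes, 6.83% higher in FAM3C KO and 1.45% lower. Cldn9 was at 2.21, 1.76 and 2.88 CPM in the FAM3C KO clones and at 0.32, 0.37 and 0.64 CPM in the LIFR KO clones. Against the shPCBP1 lines neither knockout was called at Cldn9. In LIFR KO the log2 difference from those lines was -1.20, and clone 3, at 0.64 CPM, lay above CT clone 2, at 0.61 CPM. The knockouts lay on opposite sides of the shPCBP1 mean of 1.18 CPM, and differed from each other by 5.12-fold (log2 2.14, SE 0.37, limma adjusted p = 0.0323). With clone 1 as the only LIFR KO library the log2 difference was 2.47, and its limma adjusted p of 0.0260 takes its spread from the other groups. After GC correction it was 1.71 (limma adjusted p = 0.102). The double KO, at 2.15 CPM, lay among the FAM3C KO clones. Cldn9 values rest on few reads, and its neighbour Cldn6 (chr17:23679249-23682446), on the opposite strand, was at 1.28, 1.08 and 0.77 CPM in the FAM3C KO clones and at 0.80, 0.33 and 0.64 CPM in the LIFR KO clones (log2 0.76, limma adjusted p = 0.193). Scrib differed by 0.98 on the log2 scale (SE 0.23, limma adjusted p = 0.0450), and by 0.35 (limma adjusted p = 0.126) with clone 1 as the only LIFR KO library.

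**Figure D5:**
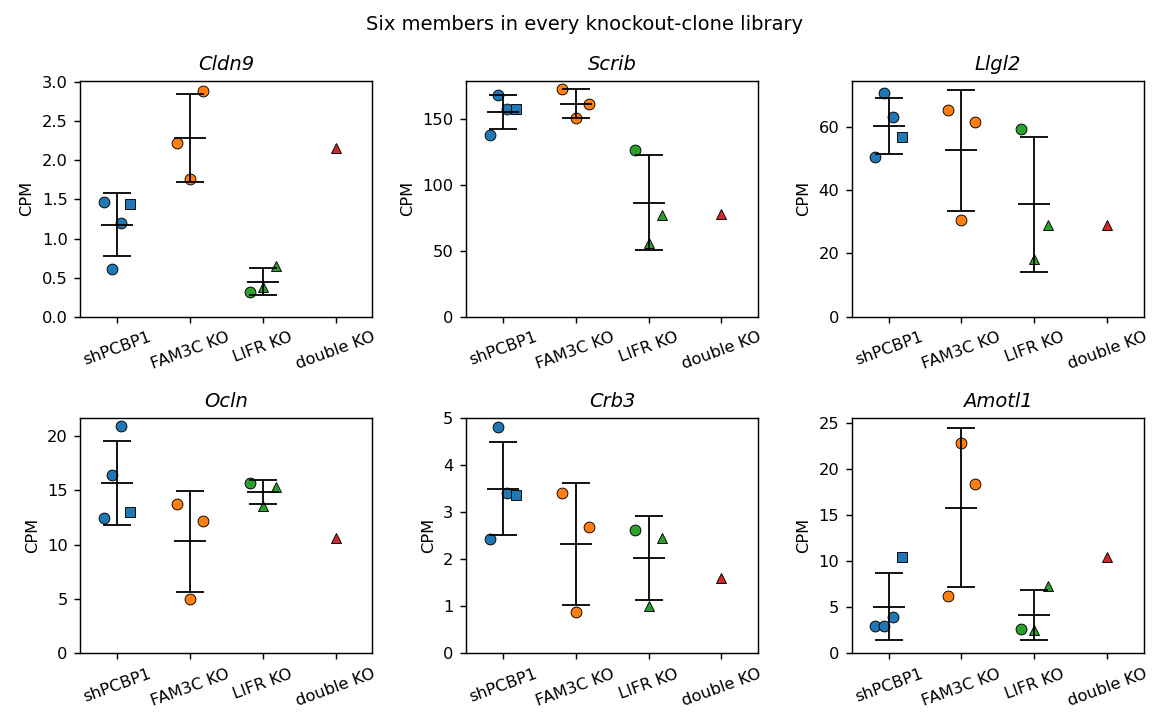
CPM of 6 members in the libraries of the knockout-clone dataset, with the mean and SD of each group of 3 or 4 libraries. Squares mark the unaltered shPCBP1 line and triangles the 3 libraries that ran against GC content. Cldn9 separates all FAM3C KO from all LIFR KO clones, Scrib and Llgl2 are low in LIFR KO clones 2 and 3, Ocln and Crb3 are low in FAM3C KO clone 2, and Amotl1 is high in FAM3C KO clones 2 and 3.

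Of the further junction and polarity genes, 38 were tested in the knockout-clone dataset. None was called in FAM3C KO, with 5 at an unadjusted p under 0.05. In LIFR KO 1 was called, Dlg3, which was lower (limma adjusted p = 0.0400), where 6.47% of all genes were called. Dlg3 was at 0.107, 0.125 and 0.043 CPM in the LIFR KO clones. It was as low in the FAM3C KO clones, where it was not called, at 0.044, 0.040 and 0.038 CPM, the lowest value of each library. In the shPCBP1 lines Dlg3 ranged widely, from 0.469 to 6.304 CPM. In the direct comparison 4 were called, where 8.28% of all genes were called. Micall2, a RAB13 effector of junction assembly, the adhesion molecule Nectin2 and Arhgef2, a junctional exchange factor for RhoA, were higher in FAM3C KO (log2 1.13, 0.88 and 0.69). Ildr2, an angulin of tricellular junctions, was lower (log2 -0.44). LIFR KO clones 1, 2 and 3 were at 32.3, 16.9 and 23.2 CPM of Nectin2 and at 97.9, 60.3 and 70.5 CPM of Arhgef2. They were at 12.9, 6.9 and 14.5 CPM of Micall2 and at 193.1, 206.0 and 183.4 CPM of Ildr2. Clones 2 and 3 carry the shift against GC content, and its part in these calls was not tested.

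The signs of the knockout differences can be set beside the knockdown. Of the 20 members that were called in the knockdown dataset and tested in the knockout clones, the log2 difference had the opposite sign to the knockdown in 7 with FAM3C KO, none of them called, and in 11 with LIFR KO, of which Cldn2 and Scrib were called. Over the 8385 genes called in the knockdown and tested in the clones, the sign was opposite in 53.5% and 56.6%. Cldn2 was among these members in both knockouts, having risen with PCBP1 knockdown and lying lower in every knockout library. Of the largest falls, Crb3 and Ocln had negative differences in both knockouts (-0.72 and -0.69 with FAM3C KO, -0.83 and -0.05 with LIFR KO), none of them called. Marveld2 was not analysed here in the knockout clones.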

How the data were processed

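RNA from mouse NMuMG-derived lines was ribosomal-RNA depleted and sequenced as stranded paired-end libraries. In Partek Flow, the authors mapped trimmed reads with Bowtie2 on GRCm38 (mm10), assigned them to genes and deposited normalized CPM per sample, in 2 tables normalized separately. The authors' group means and a fold ratio column, also deposited in the knockdown table, hold their own comparison and were not used. There, 0.0001 stands for 0. In the knockout-clone table a gene without reads carries its library's smallest value, from which the implied totals follow. In that table the starts of only 302 of 13870 genes equalled those of GENCODE M21 on GRCm38, against 14269 of 14795 in the knockdown table, so coordinates come from GENCODE M21.

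Groups came from the sample labels. The 38 members, the further genes, the markers and the motifs were chosen with earlier results of these data known. CPM is not a count, and whole reads could not be recovered, so log2(CPM + 0.1) was tested, for genes averaging 0.5 CPM or more, with limma 3.58.1 (trend, empirical Bayes; R 4.3.3), with Benjamini-Hochberg adjustment over all genes tested and a threshold of 0.07, the study's own. The shPCBP1, FAM3C KO and LIFR KO libraries shared 1 fit, and the double KO entered none. The fit was tested on simulated data. Exact permutation tests were two-sided. GC correction removed, in each library, a loess trend (span 0.3) of the difference from the mean on transcript GC content. Values in every library were given for members called in the knockout clones, members called with at least 2-fold change in the knockdown dataset, and members whose knockout groups did not overlap, and the rest by role. Alternatives were the pseudocount, filter, scaling, threshold, replicate block, GC correction, the groups and clones in the fit, and leaving out each library. Figures used matplotlib.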

Additional observations from a re-analysis of the deposited data

Results flagged for a closer look

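In 4 members 1 of the 4 shPCBP1 lines stood apart from the other 3 by Dixon's 95% criterion, in each case as the highest value: Cldn2 at 616.1 CPM in CT clone 1, Marveld1 at 73.62 CPM in CT clone 3, Tjp3 at 2.788 CPM in CT clone 2 and Amotl1 at 10.48 CPM in the unaltered line. The criterion was applied to 31 members, and chance marks about 1 in 20 groups. The lines concerned differ between genes. FAM3C KO and LIFR KO effects differed, by limma on the difference itself, at Cldn9 (2.14 on the log2 scale, higher in 3 of 3 FAM3C KO clones than in any LIFR KO clone, adjusted p = 0.0323) and at Scrib (0.98, likewise in 3 of 3 clones, adjusted p = 0.0450), with the values without LIFR KO clones 2 and 3 given above. The double KO library, which entered no comparison, lay above all 4 shPCBP1 lines at 7 of the 28 tested members (Cldn9, Cldn12, Tjp1, Jam3, Prkci, Prkcz and Dlg1), against 26% of all genes, and below all 4 at 17, against 53.8% of all genes. It has no replicate and shares the shift against GC content.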

How the results depend on the processing

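The knockdown counts stayed within 1.5 times under every alternative run, with 19 to 25 members and 8115 to 10167 genes called. The 7 members with at least 2-fold change kept direction and call, except that Tjp3 was not tested with a filter of 1 CPM. Not all stayed at 2-fold. With a pseudocount of 1 CPM the log2 differences of Prkcz and Tjp3 were -0.80 and -0.97, and with quantile normalization that of Cldn2 was 0.97. Prkcz was at -0.98 without the second shPCBP1 library and at -0.89 without the second NMuMG library. The knockout counts did not stay within 1.5 times. For FAM3C KO, members called went from 0 to 2 with the 2 groups fitted alone or with LIFR KO clones 2 and 3 not in the fit, and to 1 with GC correction. Genes called went from 39 to 21 with a filter of 1 CPM, 15 with the replicate block, 1048 with the groups alone, 281 with GC correction, 1060 without LIFR KO clones 2 and 3, and 3 to 27 without 1 library. For LIFR KO, members called went from 2 to 1 with median-ratio rescaling or a threshold of 0.05, and to 0 with the replicate block, the groups alone, GC correction or clone 1 alone. Without 1 library they ran from 0 to 14: 14 without clone 1, 1 (Cldn9) without clone 3, and 0 without clone 2 or any shPCBP1 line. Genes called went from 816 to 479 with rescaling, 359 at 0.05, 10 with the block, 35 with the groups alone, 32 with GC correction, 281 with clone 1 alone, and 5 to 7234 without 1 library. For FAM3C KO against LIFR KO, members called went from 2 to 0 with the block, the groups alone or GC correction, and ran from 0 to 11 without 1 library (0 without FAM3C KO clone 1 or 3 or LIFR KO clone 2, 1 without FAM3C KO clone 2, 5 without LIFR KO clone 3, 11 without LIFR KO clone 1). Genes called went from 1045 to 587 at 0.05, 0 with the block, 0 with the groups alone, 79 with GC correction, and 1 to 6673 without 1 library. Beyond having fewer libraries in some fits, the cause was not tested. Cldn2 and Cldn9 in FAM3C KO, Cldn2 and Scrib in LIFR KO, and Cldn9 and Scrib between the knockouts did not reverse direction in these fits, while small uncalled differences could, such as Cldn6 in FAM3C KO (0.08, and -0.10 with the replicate block). Over all alternatives, the Cldn2 log2 difference lay between -0.71 and -0.54 with FAM3C KO (limma adjusted p 0.0227 to 0.342) and between -0.62 and -0.42 with LIFR KO (0.00621 to 0.214), and that of Scrib between -1.24 and -0.24 with LIFR KO (8.32e-05 to 0.344). Between the knockouts, Cldn9 ran from 1.18 to 2.47 (0.00352 to 0.199) and Scrib from 0.34 to 1.29 (0.000148 to 0.200).

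Replicate numbers did not pair the samples: deviations of same-numbered libraries correlated at -0.181 to 0.154 in the knockout-clone dataset and 0.0512 in the knockdown dataset. The fit with the replicate block is given for that reason only here. Members under 1 CPM, such as Cldn1, Cldn7 and Marveld3, rest on few reads, and the depth of the knockdown dataset is unknown.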
